A study of Homo sapiens with 8 samples.

Results

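The HOX genes encode homeodomain transcription factors that stand in 4 clusters of the human genome, named A to D, and are numbered from 1 to 13 by the position of their paralogs. All genes of the count table whose symbol consists of HOX, a cluster letter and a number were taken as members, which gave 39 of 20294 genes: 11 of cluster A, 10 of cluster B, 9 of cluster C and 9 of cluster D. They were measured by RNA sequencing in HSC-5 cells, an established line from a human squamous cell carcinoma of the skin. The cells grew in DMEM with serum and stably carried Cas9 from a lentivirus, and guide carriers were selected with G418; whether Control was selected too is not stated. The groups were cells with the guide RNA sgEZH2-1 (3 libraries), cells with the guide RNA sgEZH2-2 (3 libraries) and cells with the empty vector, here Control (2 libraries). Both guides direct Cas9 to EZH2, and the sources do not say whether the selected cells were clones or mixed populations. The design text states that a further control library was left out by the authors because it clustered apart, so the spread of the controls may be understated.

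EZH2 is the enzyme of the Polycomb complex PRC2 and places the repressive mark H3K27me3 on histone H3. The HOX clusters are the classical targets of Polycomb repression, and trithorax proteins of the MLL family counteract it there. During development HOX genes are switched on in the order in which they lie along the chromosome, low paralog numbers first and towards the head, high numbers later and towards the tail and the tips of the limbs. Adult skin keeps part of this code of position, best known from dermal fibroblasts, and HOXC13 acts in hair follicles and nails. HOX proteins bind DNA together with the cofactors of the PBX and MEIS families.

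Library totals were 12900023 to 14724566 counts with sgEZH2-1, 12607952 to 14257843 counts with sgEZH2-2 and 14299479 and 15468597 counts in Control. EZH2 transcripts averaged 53.6 CPM with sgEZH2-1 and 68.9 CPM with sgEZH2-2 against 83.4 CPM in Control, where CPM is the read count relative to the scaled library total. Relative to Control, EZH2 was at -0.64 on the log2 scale with sgEZH2-1 (adjusted p = 0.000529, edgeR) and at -0.28 with sgEZH2-2 (adjusted p = 0.0699), and a count of transcripts does not measure the protein. All 13 listed keratinocyte markers passed the filter on low counts, and their sum was 3987 to 4444 CPM with sgEZH2-1, 3777 to 3849 CPM with sgEZH2-2 and 4263 to 4405 CPM in Control. The 8 fibroblast markers summed to 4.56 to 8.82 CPM with sgEZH2-1, 11.04 to 13.9 CPM with sgEZH2-2 and 5.93 and 7.24 CPM in Control, with COL1A2 at 0 in every library and 1 of the 8 past the filter. Their part in the HOX results was not tested. Libraries of a group are not stated to be separate cultures, so the tests weigh only the differences among these libraries, which may be technical.

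HSC-5 cells expressed a wide but uneven set of HOX genes, with nearly the whole A cluster active and most of the B cluster near silent. Per kilobase of exon, HOXA10 had the highest level of the 39 genes in all 3 groups, at 12.9 ± 0.951 CPM per kb with sgEZH2-1 (SD, n = 3) and 13.1 ± 0.571 with sgEZH2-2 (SD, n = 3) against 13.4 ± 1.05 in Control (SD, n = 2). HOXB7, a gene of the trunk, was also high, at 8.10 ± 0.643 CPM per kb with sgEZH2-1 and 8.45 ± 0.850 with sgEZH2-2 against 7.74 ± 0.690 in Control. Its level lay below that of HOXA10 beyond their spread in each group. Lower levels in Control were those of HOXC10 (4.66 ± 0.107), HOXD11 (4.56 ± 0.432) and HOXD10 (3.86 ± 0.0398 CPM per kb), of which HOXC10 and HOXD11 did not differ beyond their spread. HOXA10 also ranked highest in all 3 groups with the longest coding transcript as the length.

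**Figure D1:**
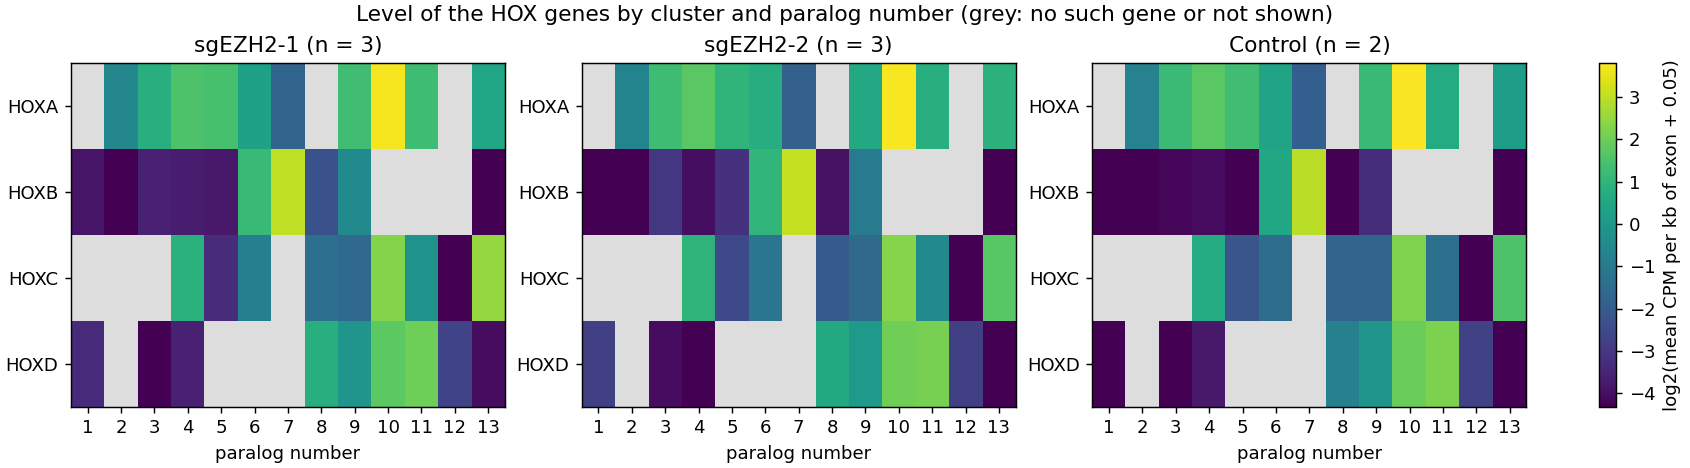
Mean level of HOX genes as log2 of CPM per kilobase of exon plus 0.05 (colour), by cluster (rows) and paralog number (columns), with sgEZH2-1 (n = 3), sgEZH2-2 (n = 3) and in Control (n = 2). Grey cells hold no gene or are not shown. HOXA10 is brightest in all panels, HOXB1 to HOXB5 are dark, and HOXB9 and HOXD8 are brighter in both guide panels.

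Of the 39 members, 22 had enough counts to be tested: 10 of 11 in cluster A, 3 of 10 in cluster B, 5 of 9 in cluster C and 4 of 9 in cluster D. The 17 others were HOXA7, HOXB1, HOXB2, HOXB3, HOXB4, HOXB5, HOXB8, HOXB13, HOXC5, HOXC8, HOXC9, HOXC12, HOXD1, HOXD3, HOXD4, HOXD12 and HOXD13. HOXB2, HOXB13 and HOXC12 had 0 counts in all 8 libraries. A count of 0 over a group allows a level of up to 0.0717 CPM with sgEZH2-1, 0.0744 CPM with sgEZH2-2 and 0.102 CPM in Control, counting error only. HOXA7, HOXC8 and HOXC9 were low but present in every library, with 54, 56 and 50 counts in all.

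In the comparison of each guide with Control, a few HOX genes rose and none passed the test as lower. HOXB9 counts as tested through its guide libraries alone, which bears on the counts of rises here and below. With sgEZH2-1, 5 of 22 tested members rose (HOXB6, HOXB9, HOXC11, HOXC13 and HOXD8), where 11.3% of all 13124 tested genes rose. None was called lower in edgeR, where 9.51% of all genes were, with 1 member lower at an unadjusted p under 0.05 and 0 called lower by DESeq2. With sgEZH2-2, 3 of 22 rose (HOXA13, HOXB9 and HOXD8), where 6.18% of all tested genes rose. None was called lower in edgeR, where 2.5% of all genes were, again with 1 member at an unadjusted p under 0.05 and 0 in DESeq2. In either direction 8.68% of all genes were called with sgEZH2-2. The median log2 fold change of the tested members was 0.14 with sgEZH2-1 and 0.14 with sgEZH2-2, against -0.0094 and 0.00091 over all tested genes. In either direction the members called with sgEZH2-1 made up 22.7%, near the 20.8% of all genes. Reads from fewer expressing cells and less RNA per cell cannot be told apart in these bulk libraries.

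**Figure D2:**
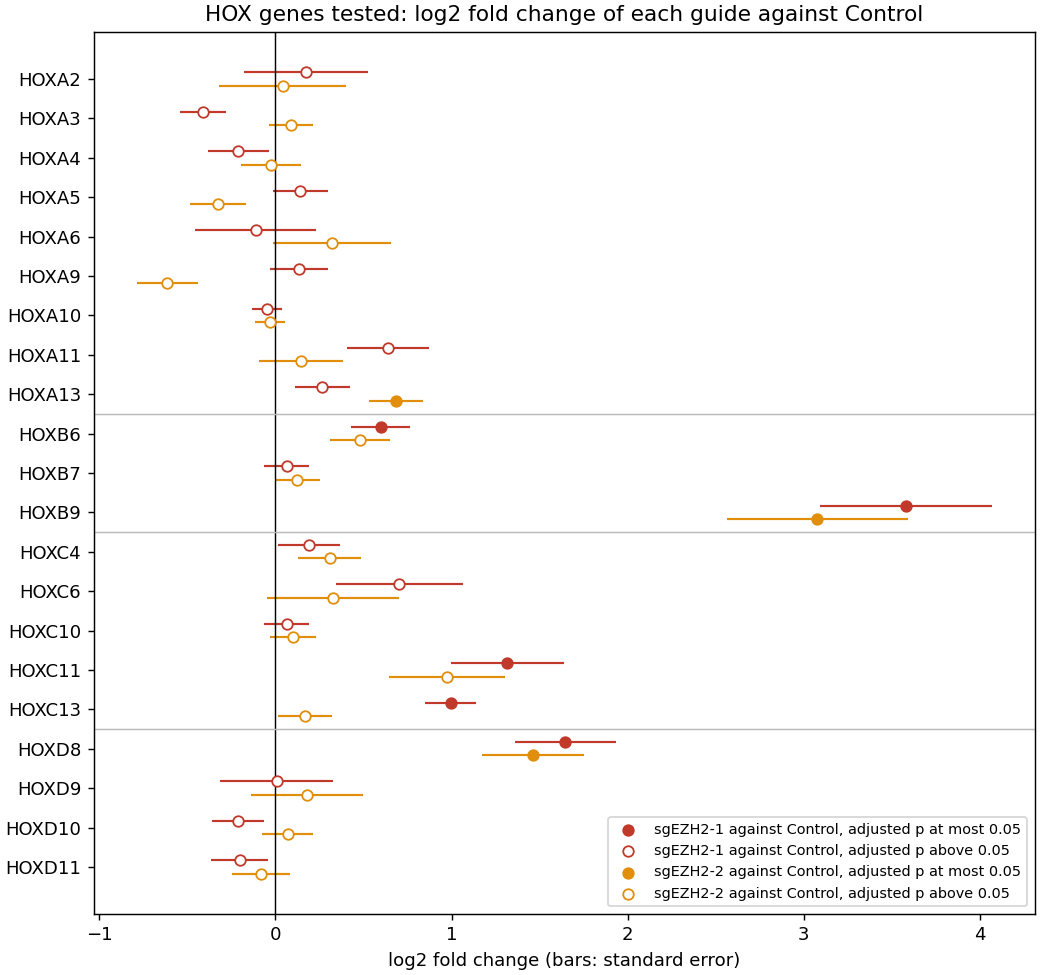
Log2 fold change (x axis, bars are standard errors) of tested HOX genes, by cluster from A at the top to D at the bottom, with sgEZH2-1 and sgEZH2-2 against Control. Filled points passed an adjusted p of 0.05. HOXB9 and HOXD8 lie far to the right with both guides, while HOXA10, HOXB7 and HOXC10 lie near 0.

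HOXB9, a gene of the thoracic trunk in the embryo, showed the largest relative rise of the tested members. It lies on chromosome 17 from 48621159 to 48626356 on the minus strand (GRCh38). It had 27, 21 and 24 counts in the sgEZH2-1 libraries and 18, 18 and 13 counts in the sgEZH2-2 libraries, against 3 and 1 counts in Control. Every guide library was above both controls. In CPM this was 1.73 ± 0.328 with sgEZH2-1 and 1.22 ± 0.213 with sgEZH2-2 (n = 3 each, SD) against 0.139 ± 0.105 in Control (SD, n = 2). The log2 fold change was 3.58 (SE 0.49, adjusted p = 0.000665) with sgEZH2-1 and 3.08 (SE 0.51, adjusted p = 0.00464) with sgEZH2-2. As a ratio of summed counts the rise was 12.7-fold with sgEZH2-1 (95% exact counting interval 4.73 to 47.7) and 8.94-fold with sgEZH2-2 (3.28 to 34.1). The size rests on 4 control counts: without the first control library the log2 values were 4.55 and 4.05, and without the second 2.97 and 2.46, the last with an adjusted p of 0.0546.

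The neighbours of HOXB9 did not move alike. HOXB8, the next gene of the cluster (chromosome 17, 48611377 to 48614939), had 4, 5 and 3 counts with sgEZH2-1 and 0, 1 and 0 counts with sgEZH2-2, against 0 and 0 counts in Control. Set against a floor of 3 counts over both controls, with the guide counts taken as exact, it was 2.81-fold higher with sgEZH2-1. It was seen in every sgEZH2-1 library. HOXB8 was below the filter. Without that filter it passed the test with sgEZH2-1 (adjusted p = 0.0469, where 8.48% of 17068 genes rose) and not with sgEZH2-2 (adjusted p = 0.660, where 4.83% of all genes rose), while the guides set against each other gave an adjusted p of 0.0696 (7.24% of all genes were higher there). HOXB7, which follows in the cluster and whose annotated span encloses HOXB8 and HOXB9, was at 11.1 ± 0.881 CPM with sgEZH2-1 and 11.6 ± 1.17 with sgEZH2-2 against 10.6 ± 0.946 in Control, and its groups overlapped.

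HOXB6 (chromosome 17, 48595751 to 48604992), known from trunk and blood cell development, had 52, 63 and 62 counts with sgEZH2-1 and 55, 49 and 53 counts with sgEZH2-2, against 42 and 40 counts in Control. All 6 guide libraries were above both controls. The log2 fold change was 0.60 (SE 0.17, adjusted p = 0.0308) with sgEZH2-1 and 0.48 (SE 0.17, adjusted p = 0.118) with sgEZH2-2. The call with sgEZH2-1 was lost without either control and without sgEZH2-1 library 2 or 3 (adjusted p 0.0648 to 0.143). HOXB6 shares 16.6% of its annotated exon bases with other genes of the same strand, namely HOXB3.

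The head end of the B cluster stayed at a few counts. HOXB3 had 3, 3 and 3 counts with sgEZH2-1 and 8, 8 and 3 counts with sgEZH2-2, against 0 and 1 in Control. The ratio of summed counts was 6.33 with sgEZH2-1 (95% exact counting interval 0.877 to 277) and 13.9 with sgEZH2-2 (2.20 to 576). Tested without the filter, its adjusted p was 0.184 with sgEZH2-1 and 0.0541 with sgEZH2-2. HOXB5 had 2 counts in all with sgEZH2-1 and 5 with sgEZH2-2 against 0 in Control, HOXB4 had 4 and 2 against 1, and HOXB1 had 2 and 0 against 0. None of HOXB1, HOXB4 and HOXB5 passed the test without the filter.

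HOXD8 (chromosome 2, 176129694 to 176132695, plus strand), a central gene of the D cluster, rose with both guides. It had 53, 70 and 64 counts with sgEZH2-1 and 52, 48 and 58 counts with sgEZH2-2, against 12 and 30 counts in Control. The lowest guide library was well above the higher control, although the spread of the controls was wider than that of either guide. The means were 4.45 ± 0.348 CPM with sgEZH2-1 and 3.93 ± 0.438 with sgEZH2-2 (n = 3 each, SD) against 1.40 ± 0.781 in Control (SD, n = 2). The log2 fold change was 1.64 (SE 0.29, adjusted p = 0.00279) with sgEZH2-1 and 1.46 (SE 0.29, adjusted p = 0.0118) with sgEZH2-2. Without the first control the values were 1.19 and 1.01, the last with an adjusted p of 0.0693, and without the second they were 2.38 and 2.19.

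**Figure D3:**
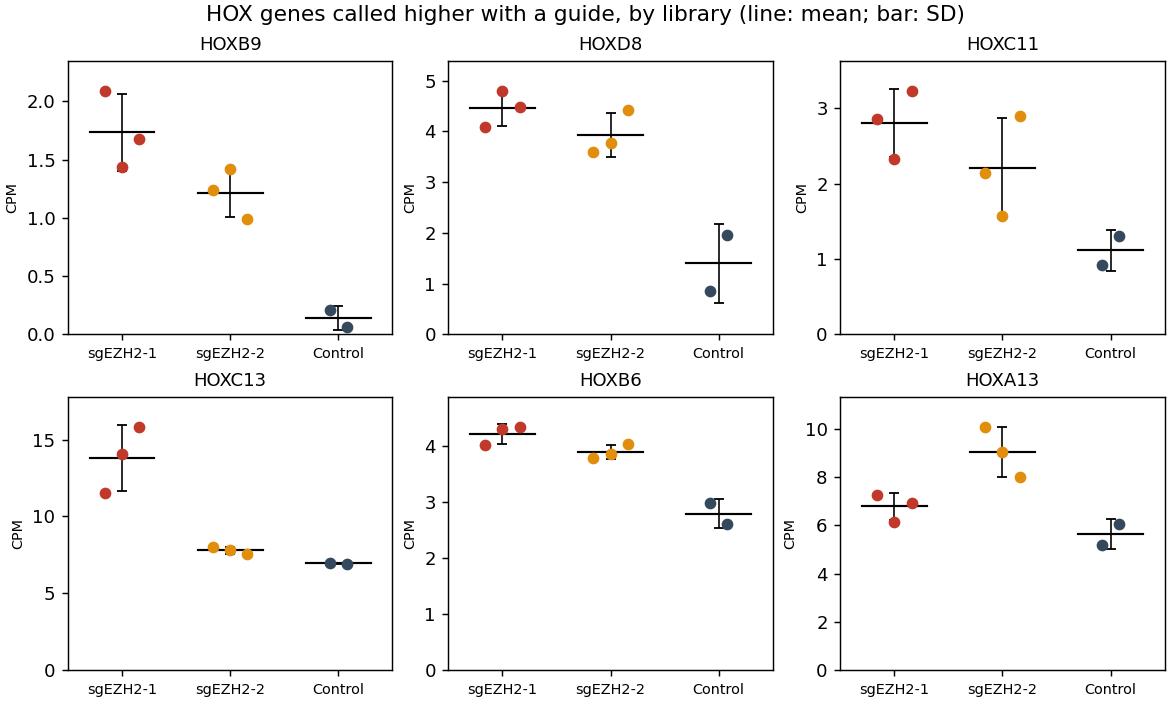
CPM of the 6 HOX genes called higher with at least 1 guide, by library (points), with sgEZH2-1 (n = 3), sgEZH2-2 (n = 3) and in Control (n = 2); lines are means and bars are SD. In HOXB9, HOXD8, HOXC11, HOXC13, HOXB6 and HOXA13 every guide library lies above both controls, with HOXC13 high in the sgEZH2-1 libraries and HOXA13 high in the sgEZH2-2 libraries.

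The other tested genes of the D cluster did not follow HOXD8. HOXD9, its closest neighbour on the 5′ side, was at 1.66 ± 0.561 CPM with sgEZH2-1 and 1.88 ± 0.338 with sgEZH2-2 against 1.66 ± 0.333 in Control. HOXD10, active in the lumbar spinal cord and the limb, had 79, 101 and 98 counts with sgEZH2-1 and 134, 100 and 92 with sgEZH2-2 against 109 and 117 in Control. Its log2 fold changes were -0.21 with sgEZH2-1 (adjusted p = 0.341) and 0.069 with sgEZH2-2 (adjusted p = 0.831). HOXD11, a gene of the forearm, had -0.20 (adjusted p = 0.415) and -0.081 (adjusted p = 0.822) in the same comparisons. HOXD10 shares 16.8% and HOXD11 21.4% of annotated exon bases with each other, so reads may have been assigned between them. HOXD1, at the 3′ end of the cluster, had 4 counts in all with sgEZH2-1 and 8 with sgEZH2-2 (5, 0 and 3 by library) against 0 in Control. Set against a floor of 3 control counts, with guide counts taken as exact, this was 0.937-fold with sgEZH2-1 and 1.95-fold with sgEZH2-2. HOXD1 did not pass the test without the filter (adjusted p = 0.300 and 0.208). It shares 58.1% of exon bases with genes of the other strand, and the strand setting of the counting is not given. HOXD3, HOXD4, HOXD12 and HOXD13 had at most 6 counts in any group.

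Promoter windows of RefSeq (GRCh38.p14) ran from 250 bases before to 50 bases after a transcript start. They were matched for 20 of the 39 members in 27 windows, of which HOXC4 and HOXC5 share 1 that is counted for both. HOXA3 had several windows and HOXA10 more than 1, so counts and medians over the windows weigh these genes more. Polycomb complexes of mammals are found mostly at promoters rich in CpG, so 4 windows are shown with every CpG in capitals: HOXD8, which rose with both guides, HOXD10, a flat neighbour, HOXA13, which rose with sgEZH2-2, and HOXA9, which differed between the guides. All read 5′ to 3′ on the strand of the gene.
HOXD8 (chr2:176129455-176129754, plus strand): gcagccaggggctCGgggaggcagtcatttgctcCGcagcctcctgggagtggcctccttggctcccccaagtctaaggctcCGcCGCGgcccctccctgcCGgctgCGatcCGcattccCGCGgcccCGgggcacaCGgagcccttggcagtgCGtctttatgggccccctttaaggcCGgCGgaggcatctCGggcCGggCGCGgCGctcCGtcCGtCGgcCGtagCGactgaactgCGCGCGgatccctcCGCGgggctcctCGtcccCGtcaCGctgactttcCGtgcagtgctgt
HOXD10 (chr2:176116528-176116827, plus strand): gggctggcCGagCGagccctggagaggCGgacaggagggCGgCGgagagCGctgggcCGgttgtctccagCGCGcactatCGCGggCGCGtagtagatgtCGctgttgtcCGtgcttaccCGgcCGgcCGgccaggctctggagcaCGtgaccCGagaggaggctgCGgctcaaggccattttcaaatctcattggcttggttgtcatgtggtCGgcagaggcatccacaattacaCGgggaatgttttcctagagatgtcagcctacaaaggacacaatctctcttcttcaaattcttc
HOXA13 (chr7:27200042-27200341, minus strand): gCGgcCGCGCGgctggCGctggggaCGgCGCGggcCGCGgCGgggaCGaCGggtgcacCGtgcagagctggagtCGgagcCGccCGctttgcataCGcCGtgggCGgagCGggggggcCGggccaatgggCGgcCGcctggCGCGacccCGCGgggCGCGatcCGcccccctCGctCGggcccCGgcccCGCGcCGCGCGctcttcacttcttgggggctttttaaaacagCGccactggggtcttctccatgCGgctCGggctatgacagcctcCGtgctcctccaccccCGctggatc
HOXA9 (chr7:27165488-27165787, minus strand): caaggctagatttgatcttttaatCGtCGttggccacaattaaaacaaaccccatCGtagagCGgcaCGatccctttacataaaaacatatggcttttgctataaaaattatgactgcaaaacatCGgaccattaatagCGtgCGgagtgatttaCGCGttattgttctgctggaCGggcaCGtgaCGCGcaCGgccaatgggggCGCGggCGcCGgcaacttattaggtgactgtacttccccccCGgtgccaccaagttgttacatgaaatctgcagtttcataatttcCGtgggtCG
The windows hold 34 CpG in HOXD8, 23 in HOXD10, 44 in HOXA13 and 22 in HOXA9. No window was available for HOXB9, HOXB6, HOXC11 and HOXC13, which were also called higher, so CpG cannot be compared between rising and flat genes. The median of the 27 HOX windows was 22 CpG and that of all 35116 windows was 14. The HOX windows ranged from 0 CpG in a window of HOXA3 to 44 in HOXA13. The CCAAT box (CCAAT, either strand) was present in 18 of the 27 HOX windows and in 34.6% of all windows. It was in the windows of HOXA9, HOXA13 and HOXD10 and not in that of HOXD8. The TATA box core (TATAAA, either strand) was in 5 of the 27 and 11.5% of all windows, among the 4 shown only in HOXA9. The HOX and PBX core TGATNNAT was in 3 of 27 HOX windows (HOXA2, HOXB1 and HOXD11) and in 7.40% of all windows, and none of the 4 printed windows held it. These matches describe letters and not binding.

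In the C cluster the rises were at the 5′ end. HOXC11 (chromosome 12, 53973126 to 53977643, plus strand), a gene of the hindlimb and lower trunk, had 37, 34 and 46 counts with sgEZH2-1 and 31, 20 and 38 counts with sgEZH2-2, against 13 and 20 counts in Control. In CPM this was 2.80 ± 0.450 with sgEZH2-1 and 2.20 ± 0.665 with sgEZH2-2 against 1.11 ± 0.269 in Control, and every guide library was above both controls. The log2 fold change was 1.32 (SE 0.32, adjusted p = 0.0163) with sgEZH2-1 and 0.97 (SE 0.33, adjusted p = 0.103) with sgEZH2-2. The call with sgEZH2-1 was lost without the first control (1.10, adjusted p = 0.127).

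HOXC13 (chromosome 12, 53938765 to 53946544, plus strand), the regulator of hair keratins, rose with sgEZH2-1. It had 149, 206 and 226 counts with sgEZH2-1 and 116, 99 and 99 counts with sgEZH2-2, against 98 and 106 counts in Control. The means were 13.8 ± 2.17 CPM with sgEZH2-1 and 7.78 ± 0.228 with sgEZH2-2 against 6.94 ± 0.0339 in Control. The log2 fold change was 1.00 (SE 0.15, adjusted p = 0.000995) with sgEZH2-1 and 0.17 (SE 0.15, adjusted p = 0.575) with sgEZH2-2. The difference between the guides itself passed the test at 0.83 (SE 0.13, adjusted p = 0.00172). KRT86, a hair keratin gene and the 1 tested hair keratin of the target list, was at 3.87 CPM with sgEZH2-1 and 2.68 CPM with sgEZH2-2 against 2.44 CPM in Control, a log2 change of 0.66 with sgEZH2-1 (adjusted p = 0.0265) and of 0.13 with sgEZH2-2 (adjusted p = 0.775).

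The remaining C genes gave no call. HOXC10, the strongest gene of the cluster in Control per kilobase, was at 9.40 ± 1.07 CPM with sgEZH2-1 and 9.65 ± 0.550 with sgEZH2-2 against 9.02 ± 0.207 in Control. HOXC6, a thoracic gene, had log2 fold changes of 0.70 (SE 0.36, adjusted p = 0.200) and 0.33 (SE 0.38, adjusted p = 0.667) with sgEZH2-1 and sgEZH2-2, and HOXC4, a cervical gene, had 0.19 (adjusted p = 0.487) and 0.31 (adjusted p = 0.349). HOXC4 shares 17.8% of exon bases with annotated genes of the same strand, namely HOXC6 and another locus that carries the name HOXC5. HOXC6 shares 15.7%, with HOXC4, HOXC9 and that locus. HOXC5 itself shares 59.9%, with that locus and a further annotated gene. The counts of HOXC4, HOXC5 and HOXC6 are therefore uncertain. HOXC5 had 4 and 9 counts in the guide groups against 9 in Control.

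In the A cluster 1 of 10 tested genes was called against Control with at least 1 guide. Over all tested genes, 20.8% were called with sgEZH2-1 and 8.68% with sgEZH2-2. So few genes allow no comparison with these shares. HOXA13 (chromosome 7, 27193503 to 27200106, minus strand), the gene of the hand and of the urogenital tract, had 94, 90 and 99 counts with sgEZH2-1 and 146, 115 and 105 counts with sgEZH2-2, against 73 and 93 counts in Control. The log2 fold change was 0.27 (SE 0.16, adjusted p = 0.259) with sgEZH2-1 and 0.68 (SE 0.15, adjusted p = 0.0212) with sgEZH2-2. The call with sgEZH2-2 was lost without either control and without the first or second sgEZH2-2 library (adjusted p 0.0584 to 0.148). HOXA11, a gene of the forearm and the uterus, had 82, 69 and 79 counts with sgEZH2-1 and 54, 38 and 66 with sgEZH2-2 against 55 and 49 in Control, with a log2 fold change of 0.64 (SE 0.23, adjusted p = 0.0797) with sgEZH2-1 and 0.15 (adjusted p = 0.780) with sgEZH2-2. It shares 31.1% of exon bases with its antisense gene HOXA11-AS, and the strand setting of the counting is not given in the sources used here.

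HOXA10, the most abundant member and known from the uterus and blood progenitors, was nearly flat, with log2 fold changes of -0.050 (SE 0.085) with sgEZH2-1 and -0.029 (SE 0.085) with sgEZH2-2. HOXA2, HOXA4 and HOXA6, whose values ran from -0.21 for HOXA4 to 0.17 for HOXA2 with sgEZH2-1 and from -0.026 for HOXA4 to 0.32 for HOXA6 with sgEZH2-2, were not called either.

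Set directly against each other, the guides differed on 5 of 22 tested HOX genes, near the 21.9% of all tested genes. With sgEZH2-1 as the first group, HOXA5, HOXA9 and HOXC13 were higher (10.4% of all genes were) and HOXA3 and HOXA13 were lower (11.5% were). HOXA9 (chromosome 7, 27162435 to 27175180), a driver gene of leukaemia, had 73, 74 and 62 counts with sgEZH2-1 and 45, 37 and 38 counts with sgEZH2-2, with 65 and 69 in Control. The groups of the guides did not overlap in CPM, and the log2 difference was 0.75 (SE 0.16, adjusted p = 0.00830). Against Control HOXA9 was at 0.14 with sgEZH2-1 (adjusted p = 0.608) and -0.61 with sgEZH2-2 (adjusted p = 0.0568). HOXA9 shares 15.9% of exon bases with other annotated genes of its strand, among them the readthrough locus with HOXA10.

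HOXA3 (chromosome 7, 27106184 to 27152581), a gene of the pharyngeal arches, had 76, 100 and 85 counts with sgEZH2-1 and 134, 109 and 112 counts with sgEZH2-2, with 123 and 120 in Control. The log2 difference between the guides was -0.50 (SE 0.12, adjusted p = 0.0146). HOXA3 shares 9.2% of exon bases with other annotated genes of its strand and 15.4% with genes of the other strand. Against Control HOXA3 was at -0.41 with sgEZH2-1 (SE 0.13), and its adjusted p of 0.05001 was just above the threshold; it fell just under the threshold when library totals were taken before the filter. HOXA5, a gene of the lung and the mammary gland, was at 4.43 ± 0.197 CPM with sgEZH2-1 and 3.19 ± 0.167 with sgEZH2-2, with 4.01 ± 0.0465 in Control. Its log2 difference was 0.47 (adjusted p = 0.0426), a call that was lost when any 1 of the 8 libraries was left out (adjusted p 0.0540 to 0.131). The log2 difference of HOXA13 was -0.42 (adjusted p = 0.0469) and was lost without any 1 library except the second control, where the adjusted p ran from 0.0508 to 0.158.

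**Figure D4:**
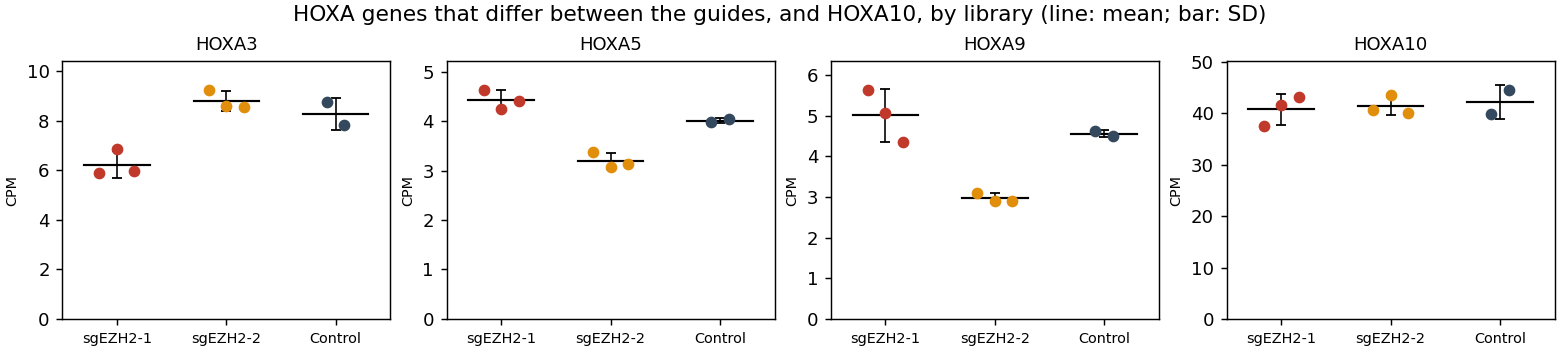
CPM of HOXA3, HOXA5, HOXA9 and HOXA10 by library (points), with sgEZH2-1 (n = 3), sgEZH2-2 (n = 3) and in Control (n = 2); lines are means and bars are SD. HOXA3 is low in the sgEZH2-1 libraries, HOXA5 and HOXA9 are low in the sgEZH2-2 libraries, and the groups overlap in HOXA10.

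With the guides pooled, where a difference between them counts as spread, 2 of 22 members rose (3.76% of all tested genes did) and 0 were called lower in edgeR, where 0.594% of all genes were (4.36% in either direction); 0 members were lower at an unadjusted p under 0.05 and 0 in DESeq2. They were HOXB9 at a log2 fold change of 3.35 (SE 0.52, adjusted p = 0.00536) and HOXD8 at 1.56 (SE 0.29, adjusted p = 0.0127). HOXB9 lost this call without the second control (adjusted p = 0.0962) and HOXD8 without the first (adjusted p = 0.118). As a mean of both guides in the fit of 3 groups, 5 members rose, where 7.7% of all tested genes did: HOXB6, HOXB9, HOXC11, HOXC13 and HOXD8. All 6 guide libraries were above both controls in 6 of 22 members, where 10.2% of all tested genes showed this, namely HOXA13, HOXB6, HOXB9, HOXC11, HOXC13 and HOXD8. They were below both controls in 0 of 22, against 9.77% of all tested genes. The 3 sgEZH2-1 libraries alone lay above both controls in 9 members (23.7% of all genes) and below in 3 (24.2%), and the 3 sgEZH2-2 libraries alone in 7 (19.3%) and 2 (20.5%). The sgEZH2-1 libraries lay above all sgEZH2-2 libraries in 4 members (21% of all genes) and below in 3 (21.2%).

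The sums of the B and C clusters were higher in all guide libraries than in both controls, while the A sum was level. Not every gene took part: HOXC13 was at 13.8 CPM with sgEZH2-1 against 6.94 in Control, and HOXC10 at 9.40 against 9.02. The A cluster summed to 96.6 ± 2.60 CPM with sgEZH2-1 and 99.2 ± 4.68 with sgEZH2-2 (n = 3 each, SD) against 98.2 ± 4.32 in Control (SD, n = 2). The B cluster summed to 17.8 ± 1.12 CPM with sgEZH2-1 and 17.4 ± 1.36 with sgEZH2-2 against 13.6 ± 0.669 in Control, without overlap. The C cluster summed to 32.9 ± 4.08 and 26.4 ± 1.38 against 22.8 ± 0.656 CPM, also without overlap, and the D cluster to 19.1 ± 1.77 and 20.8 ± 0.300 against 17.9 ± 0.410 CPM, where 1 sgEZH2-1 library lay below both controls. By paralog number, genes 1 to 3 gave 0 calls against Control among 3 tested with either guide. Genes 4 to 8 gave 2 rises among 8 with sgEZH2-1 and 1 with sgEZH2-2, and genes 9 to 13 gave 3 among 11 and 2 among 11, beside rises of 11.3% of all tested genes with sgEZH2-1 and 6.18% with sgEZH2-2. So few genes per class allow no comparison of the classes. These sums and splits carry no test.

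**Figure D5:**
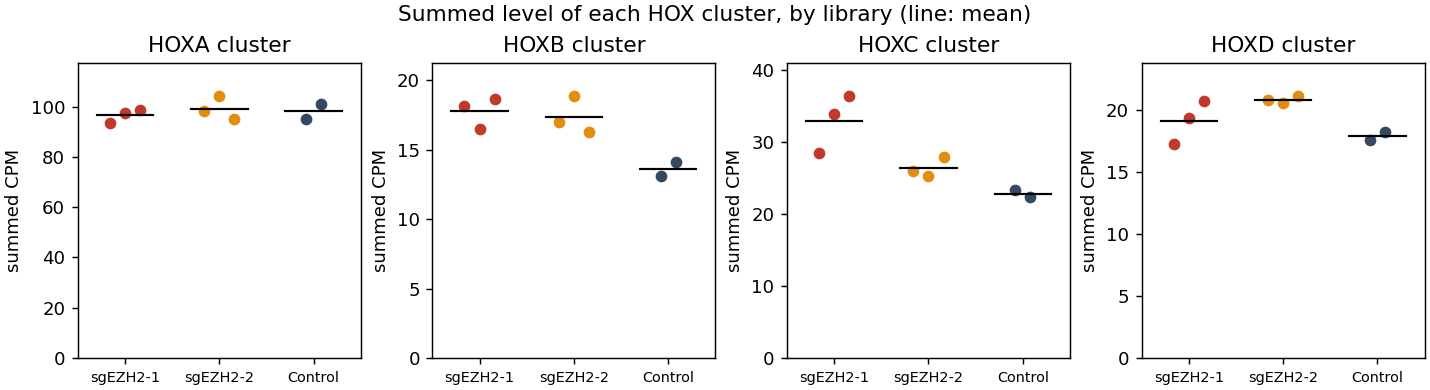
Summed CPM of each HOX cluster by library (points; lines are means), with sgEZH2-1 (n = 3), sgEZH2-2 (n = 3) and in Control (n = 2). The A cluster is level near 98 CPM, and the B and C clusters lie above both controls in every guide library.

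The cofactors of HOX proteins were led by MEIS3. It had 42 counts in all with sgEZH2-1 and 45 with sgEZH2-2 against 1 in Control, a ratio of 29.5 (95% exact counting interval 5.02 to 1194) and of 32.8 (5.60 to 1326), with adjusted p of 0.00185 and 0.00286. With 1 control count, MEIS3 passed the filter through the guide libraries, where it was high, so its place among the tested genes depended on them. Of 8 tested cofactor genes 2 rose and 1 fell with sgEZH2-1, and 3 rose and 0 fell with sgEZH2-2. Over all tested genes 11.3% rose and 9.51% fell with sgEZH2-1, and 6.18% rose and 2.5% fell with sgEZH2-2. The median log2 fold change was 0.042 with sgEZH2-1 and 0.16 with sgEZH2-2, against -0.0094 and 0.00091 over all tested genes. MEIS1, the partner of HOXA9 in leukaemia, fell with sgEZH2-1 to 8.05 CPM against 12.3 CPM in Control (log2 fold change -0.61, adjusted p = 0.00529) and had -0.32 with sgEZH2-2 (adjusted p = 0.130). PBX3 rose with sgEZH2-1 (0.39, adjusted p = 0.0446). MEIS2 rose with sgEZH2-2 (0.28, adjusted p = 0.0380).

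Of 18 tested trithorax and MLL genes, which maintain HOX expression, 0 rose and 1 fell with each guide, where 20.8% of all genes were called with sgEZH2-1 and 8.68% with sgEZH2-2. MEN1, which encodes the MLL partner menin, fell with sgEZH2-1 (log2 fold change -0.37, adjusted p = 0.0219), and RBBP5, a core subunit gene, fell with sgEZH2-2 (-0.26, adjusted p = 0.0497). The list medians were -0.063 with sgEZH2-1 and 0.040 with sgEZH2-2. The list of CDX, ParaHox and retinoic acid genes, chosen as regulators of HOX, had 11 tested members, all of them retinoic acid genes. No CDX or ParaHox gene passed the filter. Of the 11 tested genes, 3 rose and 4 fell with sgEZH2-1 (11.3% and 9.51% of all genes). With sgEZH2-2, 2 of them rose and 0 fell (6.18% and 2.5% of all genes). Their median was -0.099 with sgEZH2-1 and 0.057 with sgEZH2-2. CYP26B1, which degrades retinoic acid, rose with both, to 6.03 CPM with sgEZH2-1 and 6.57 CPM with sgEZH2-2 against 2.61 CPM in Control (log2 fold changes 1.21 and 1.32, adjusted p = 0.00279 and 0.00334). ALDH1A3, which makes retinoic acid, rose by 0.77 with sgEZH2-1 (adjusted p = 1.27e-05) and by 0.21 with sgEZH2-2 (adjusted p = 0.0476). With sgEZH2-1 CRABP2, a carrier of retinoic acid, rose (0.62, adjusted p = 0.000243) and the retinal reductase gene DHRS3 fell (-0.58, adjusted p = 0.000106). ALDH1A1 (-0.73, adjusted p = 0.00256), STRA6 (-0.51, adjusted p = 0.00388) and RXRB (-0.28, adjusted p = 0.0139) also fell with sgEZH2-1.

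Of 21 tested genes from the surroundings of the clusters, 3 rose and 0 fell with sgEZH2-1 and 1 rose and 0 fell with sgEZH2-2, with medians of -0.0092 and 0.00075, beside the same shares of all genes (11.3% and 9.51% with sgEZH2-1, 6.18% and 2.5% with sgEZH2-2). JAZF1, a zinc finger gene 630.5 kb from the A cluster, rose with both guides, to 14.7 CPM with sgEZH2-1 and 11.5 CPM with sgEZH2-2 against 2.91 CPM in Control (log2 fold changes 2.33 and 1.97). TAX1BP1, 539.2 kb from the A cluster, rose by 0.26 with sgEZH2-1, and LNPK, 90.1 kb from the D cluster, rose by 0.44 with sgEZH2-1. Of 14 tested genes proposed as targets of HOX factors in other cell types, 7 rose and 2 fell with sgEZH2-1 (11.3% and 9.51% of all genes) and 0 rose and 2 fell with sgEZH2-2 (6.18% and 2.5% of all genes). The largest rise was that of IGFBP3, which encodes a binding protein of insulin-like growth factors, at 119 CPM with sgEZH2-1 and 55.6 CPM with sgEZH2-2 against 48.9 CPM in Control (log2 fold change 1.29 with sgEZH2-1, adjusted p = 2.98e-06). With sgEZH2-2 IGFBP3 was not called (0.18, adjusted p = 0.159). VEGFA fell with both guides (-0.34 with sgEZH2-1, adjusted p = 0.000854, and -0.41 with sgEZH2-2, adjusted p = 0.000591). The list medians were 0.32 with sgEZH2-1 and 0.092 with sgEZH2-2, against -0.0094 and 0.00091 over all tested genes.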

How the data were processed

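RNA of 8 HSC-5 libraries was measured after TruSeq Stranded mRNA library preparation, per the labels' protocols. The authors deposited 1 table of read counts per gene, whole numbers with no normalization. FastQC, STAR and DESeq with build hg38 are named, per the submitters' processing notes; the sources used here give no version, counting tool, annotation or strand setting. No row lacked a gene name and no column was left out. Columns name the group and no replicate number, so libraries are numbered in the order of the columns.

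Groups were set from sample titles. Genes were kept with filterByExpr of edgeR 4.0.16 (minimum count 10) in R 4.3.3, which left 13124 genes, and library totals were scaled by TMM. Guides were compared with Control and with each other as contrasts of a 3-group fit, and pooled in a fit of 2 levels, by the two-sided quasi-likelihood F test with Benjamini-Hochberg adjustment over all tested genes with calls at 0.05. Adjusted p values are from edgeR unless DESeq2 is named. Standard errors were derived from the F statistic. The code was tested on simulated data.

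Libraries of a group differed by more than counting noise (chi-square per degree of freedom over the tested genes 2.14 to 9.59). Exon lengths and coordinates come from GENCODE release 29 (GRCh38), with exons of its basic set, and promoter windows from RefSeq. Counting intervals are exact (95%, scipy 1.17.1) and, like floors of 3 counts, cover counting error only, as PCR copies of a molecule cannot be recognised without identifiers. Members of other lists are named where called, at most 4 per list and comparison. The exception is the list with the retinoic acid genes, where all members called with sgEZH2-1 are named. The members, lists and tests were chosen with earlier results of these data known. HOX antisense and noncoding RNAs were not analysed here. Some genes that enter the counts, medians and sums are not reported here by name or drawn singly. Alternatives were DESeq2 1.42.0, other scalings, no filter, other fits and leaving out each library.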

Additional observations from a re-analysis of the deposited data

Results flagged for a closer look

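Of 22 tested HOX genes, 5 (22.7%) differed between sgEZH2-1 and sgEZH2-2 cells by the direct test in edgeR, near the 21.9% of all tested genes. Guides and selected cell populations cannot be told apart. The log2 difference was 0.83 for HOXC13 (adjusted p = 0.00172), 0.75 for HOXA9 (adjusted p = 0.00830), -0.50 for HOXA3 (adjusted p = 0.0146), 0.47 for HOXA5 (adjusted p = 0.0426) and -0.42 for HOXA13 (adjusted p = 0.0469). Of 14 alternatives each, 11 lost the call of HOXA5 and 9 that of HOXA13, while HOXA3, HOXA9 and HOXC13 kept theirs in all 14. HOXC13 was higher in all 3 sgEZH2-1 libraries than in any sgEZH2-2 library, as were HOXA9 and HOXA5, while HOXA3 and HOXA13 were lower in all 3. EZH2 transcripts were lower with sgEZH2-1 than with sgEZH2-2 by a log2 difference of -0.36 (adjusted p = 0.00844), and the part of this in the HOX differences was not tested. Groups of 2 or 3 libraries were too small for the check on single outlying libraries.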

How the results depend on the processing

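The number of HOX genes called depended on which libraries were used. With each library left out in turn, the rises ran from 3 to 5 with sgEZH2-1, from 1 to 3 with sgEZH2-2, from 1 to 3 with the guides pooled, and from 2 to 2 for sgEZH2-1 over sgEZH2-2, against 3 with all libraries. The falls ran from 0 to 0 with sgEZH2-1, 0 to 1 with sgEZH2-2, 0 to 0 pooled and 1 to 2 between the guides. Where a control was left out, the lone control was taken to vary like the other groups. With library totals taken before the filter, an alternative chosen after seeing the data, 1 gene (HOXA3) fell with sgEZH2-1. The mean of both guides in the 3-group fit gave 5 rises against 2, and 7.7% of all genes rose in it against 3.76%. Between the guides 1 gene was lower, against 2, without the filter and with DESeq2, and 2 were higher, against 3, in both of these and in the fit of the 2 groups, each without HOXA5. HOXA9 was called lower with sgEZH2-2 only without the first sgEZH2-1 library (-0.61, adjusted p = 0.0491). HOXB6 lost its call with sgEZH2-1 in DESeq2 (adjusted p = 0.153) and in the fit of the 2 groups alone (adjusted p = 0.0679). Of the repeats for single members, 1190 stayed on their side of the threshold, 35 lost a call, 7 gained one and 0 called values changed sign. HOXB9, HOXC13 and HOXD8 with sgEZH2-1 kept their calls in each of the 14 alternatives. No paired analysis was possible because the columns carry no replicate numbers. The cause of these changes was not tested.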
